A study of Saccharomyces cerevisiae with 48 samples.

Results

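Cultures of 3 strains of Saccharomyces cerevisiae grown without oxygen were compared with separate cultures grown with it. All grew in YPD, a rich glucose medium, with 1% isobutanol, a branched short-chain alcohol. Oxygen removal below stands for this comparison of separate cultures, each inoculated into its medium and grown for generations, and not for a shift of a growing culture. The 6 anaerobic libraries were set against the 6 aerobic libraries with strain as a block, which uses 12 of the 48 libraries of the study. WA is NCY3290, of the West African lineage, while PAP (Y7568) and IL01 are mosaic strains, the former isolated from papaya. Each strain gave 2 replicates per oxygen condition, and 1% isobutanol was present on both sides of the comparison. Aerobic cultures were shaken in flasks and anaerobic cultures grew in an anaerobic chamber, so the removal of oxygen and the other differences between these vessels cannot be told apart. Cultures were started at an OD600 of 0.01 and collected at 0.5, per the labels, and the study collected the replicates on different days. The 12 libraries of plain YPD and the 12 libraries of 0.8% 1-butanol from the same strains served to ask whether an effect of oxygen differed between media.

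Reads assigned to genes ran from 6585576 to 10214479 in the aerobic libraries (median 7584925) and from 6165750 to 8908078 in the anaerobic libraries (median 7729291.5). The share of mapped reads in genes was 78.3% to 82.6% in the aerobic libraries and 66.4% to 82.4% in the anaerobic libraries, with the lowest share in WA anaerobic replicate 1. Replicates correlated at 0.979 to 0.993 on the log2 scale in 5 of the 6 groups and at 0.936 in IL01 anaerobic, whose replicates differed most. Levels are given as RPKM, read counts scaled by gene length and by the mapped reads of the library, and changes as the anaerobic minus the aerobic value of log2(RPKM + 1). On that scale a change of a gene with a low level is understated. A gene is said to rise or fall where limma called it at a false discovery rate (FDR) under 1%.

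Yeast ferments glucose with or without oxygen, but heme, sterols and unsaturated fatty acids are made by enzymes that use oxygen. With oxygen, heme keeps the activators Hap1 and Hap2/3/4/5 at work on genes of respiration and supports transcription of ROX1, whose product represses hypoxic genes. When sterol runs low, Upc2 and its paralog Ecm22 act on genes of sterol synthesis and import and on the cell wall mannoproteins of the DAN, TIR and PAU families. Aft1 and Aft2 switch on genes of iron uptake when the supply of iron-sulfur clusters is low.

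Upstream sequences of genes at both ends of the response are shown first. The genes they precede moved by up to 10.28 on the log2 scale. Most of the windows shown carry letters that these regulators are known to bind, and they were picked with this in view. Among the largest increases the windows of TIR1, TIR4, HES1 and PBI1 held none of the searched letters. The same holds for YER053C-A, CTR3 and ROX1 among the largest decreases, and these windows are not shown. CYC1 is shown as the neighbor of ANB1. Each window spans the 300 bases from 350 to 51 before the start codon in the S288c genome (R64, RefSeq annotation), is written 5′ to 3′ on the strand of the gene, and has matches to the searched letters in capitals. ANB1, an isoform of the translation factor eIF5A, and CYC1, the main cytochrome c, are divergent neighbors that share 953 bases between their start codons on chromosome X, from 525382 to 526334. The ANB1 window is chrX:525432-525731 on the minus strand and the CYC1 window is chrX:525985-526284 on the plus strand. DAN1, a mannoprotein of the anaerobic cell wall, has its window at chrX:709758-710057 on the minus strand, and PAU2, a seripauperin, at chrV:63378-63677 on the plus strand. FIT2 and FIT3, cell wall mannoproteins that retain iron-bound siderophores, have their windows at chrXV:1059181-1059480 on the plus strand and chrXV:1061106-1061405 on the minus strand.
ANB1: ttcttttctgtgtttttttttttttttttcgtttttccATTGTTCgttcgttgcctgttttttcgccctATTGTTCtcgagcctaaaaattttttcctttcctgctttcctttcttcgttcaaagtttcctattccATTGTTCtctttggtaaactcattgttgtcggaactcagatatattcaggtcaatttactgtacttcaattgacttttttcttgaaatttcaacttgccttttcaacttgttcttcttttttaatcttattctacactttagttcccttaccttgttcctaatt
CYC1: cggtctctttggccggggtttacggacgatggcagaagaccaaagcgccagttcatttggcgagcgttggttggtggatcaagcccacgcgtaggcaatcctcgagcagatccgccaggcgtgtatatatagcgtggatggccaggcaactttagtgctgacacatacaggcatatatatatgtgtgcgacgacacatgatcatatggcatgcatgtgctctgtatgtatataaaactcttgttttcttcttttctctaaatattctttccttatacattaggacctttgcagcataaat
DAN1: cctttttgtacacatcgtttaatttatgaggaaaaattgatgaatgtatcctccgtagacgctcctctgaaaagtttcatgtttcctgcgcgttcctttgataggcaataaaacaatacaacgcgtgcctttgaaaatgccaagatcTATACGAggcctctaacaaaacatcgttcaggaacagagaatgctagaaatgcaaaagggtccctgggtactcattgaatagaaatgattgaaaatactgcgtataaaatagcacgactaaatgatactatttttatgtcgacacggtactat
PAU2: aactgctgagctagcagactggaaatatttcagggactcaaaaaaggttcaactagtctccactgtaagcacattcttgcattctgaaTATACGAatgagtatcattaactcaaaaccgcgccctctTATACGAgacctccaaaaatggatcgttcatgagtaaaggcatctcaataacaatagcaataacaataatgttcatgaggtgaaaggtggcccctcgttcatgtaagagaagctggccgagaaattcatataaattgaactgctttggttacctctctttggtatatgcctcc
FIT2: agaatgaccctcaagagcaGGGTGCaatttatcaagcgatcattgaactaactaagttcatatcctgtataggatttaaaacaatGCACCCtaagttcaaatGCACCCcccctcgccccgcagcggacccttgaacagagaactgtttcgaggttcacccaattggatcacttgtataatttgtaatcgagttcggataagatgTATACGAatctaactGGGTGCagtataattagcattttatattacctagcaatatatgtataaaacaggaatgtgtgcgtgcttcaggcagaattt
FIT3: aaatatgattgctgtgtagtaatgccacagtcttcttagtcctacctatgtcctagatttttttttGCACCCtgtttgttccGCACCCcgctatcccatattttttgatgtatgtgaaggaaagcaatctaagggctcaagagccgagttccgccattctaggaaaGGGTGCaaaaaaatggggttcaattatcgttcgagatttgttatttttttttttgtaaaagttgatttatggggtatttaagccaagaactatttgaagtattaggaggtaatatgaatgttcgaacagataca

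In the ANB1 window the capitals are 3 copies of ATTGTTC, the core of the Rox1 site, which begin 312, 281 and 214 bases before the start codon. DAN1 and PAU2 hold the Upc2/Ecm22 core TCGTATA, written here as its reverse complement, in 1 and 2 copies. FIT2 has 4 and FIT3 has 3 copies of the Aft1/Aft2 core GCACCC on either strand, and FIT2 also has 1 copy of the Upc2/Ecm22 core. The CYC1 window holds none of the searched letters, which also included ACCAAT for Hap2/3/4/5 and the Hap1 site, a pair of CGG triplets in tandem with a spacer. Only exact matches were counted, so the absence of a match does not show that the CYC1 window lacks a Hap1 or Hap2/3/4/5 site. All searches covered both strands, and matches of different motifs overlapped in 2 of 6001 windows and in none of the windows of named genes. Over the 6001 windows of protein genes, 4.5% held the Upc2/Ecm22 core, 7.45% the Rox1 core, 15.4% the Hap2/3/4/5 core, 0.167% the Hap1 site and 4.47% the Aft1/Aft2 core. Among the 10 genes with the largest increases, 4 had the Upc2/Ecm22 core (DAN1, PAU5, PAU2 and PAU23), 2 the Rox1 core and none the Aft1/Aft2 core. Of the 10 with the largest decreases 9 had a window, and among these 4 had the Aft1/Aft2 core (FET3, FIT2, FIT3 and FAA1). Over all genes that rose or fell the shares were 9.36% of 1559 risen and 5.78% of 899 fallen genes for the Rox1 core and 4.17% and 6.79% for the Aft1/Aft2 core. The Hap1 site was in the windows of only 1 risen gene (0.0641%) and 4 fallen genes (0.445%), beside 10 of 5487 tested genes (0.182%). The Upc2/Ecm22 core was in those of 5% of risen and 4.45% of fallen genes, beside 4.5% of all 5487 windows of tested genes, and the Hap2/3/4/5 core in 15.6% and 15.5%, beside 15.3%. A match is a description of the letters in the window.

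Oxygen removal changed the level of a large share of the transcriptome. Of 5715 genes tested, 1597 rose without oxygen, which is 27.9%, and 932 fell, which is 16.3%, so 44.3% changed. In 899 genes every anaerobic library lay above every aerobic library (15.7%), and in 622 every anaerobic library lay below (10.9%). In 2242 of the 2529 genes that changed, every anaerobic library lay on the same side of both aerobic libraries of its own strain. Large changes were few: 45 genes rose and 32 fell by at least 4 on the log2 scale. The median change of all genes was 0.18, and it depends on how the libraries are scaled. With quantile normalization the median was -0.05 and 1204 genes rose against 1327 that fell, and with library medians set equal it was -0.07 with 1197 against 1473. Risen genes thus made up 63.1% of the changed genes as deposited, 47.6% with quantile normalization and 44.8% with equal medians. Group medians below are therefore to be read against the median of 0.18 for all genes. Without PAP the number of changed genes was 1187, and an unadjusted p under 0.05 was reached by 3587 genes. These are bulk samples, in which fewer cells that express a gene and less RNA of it per cell cannot be told apart.

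**Figure D1:**
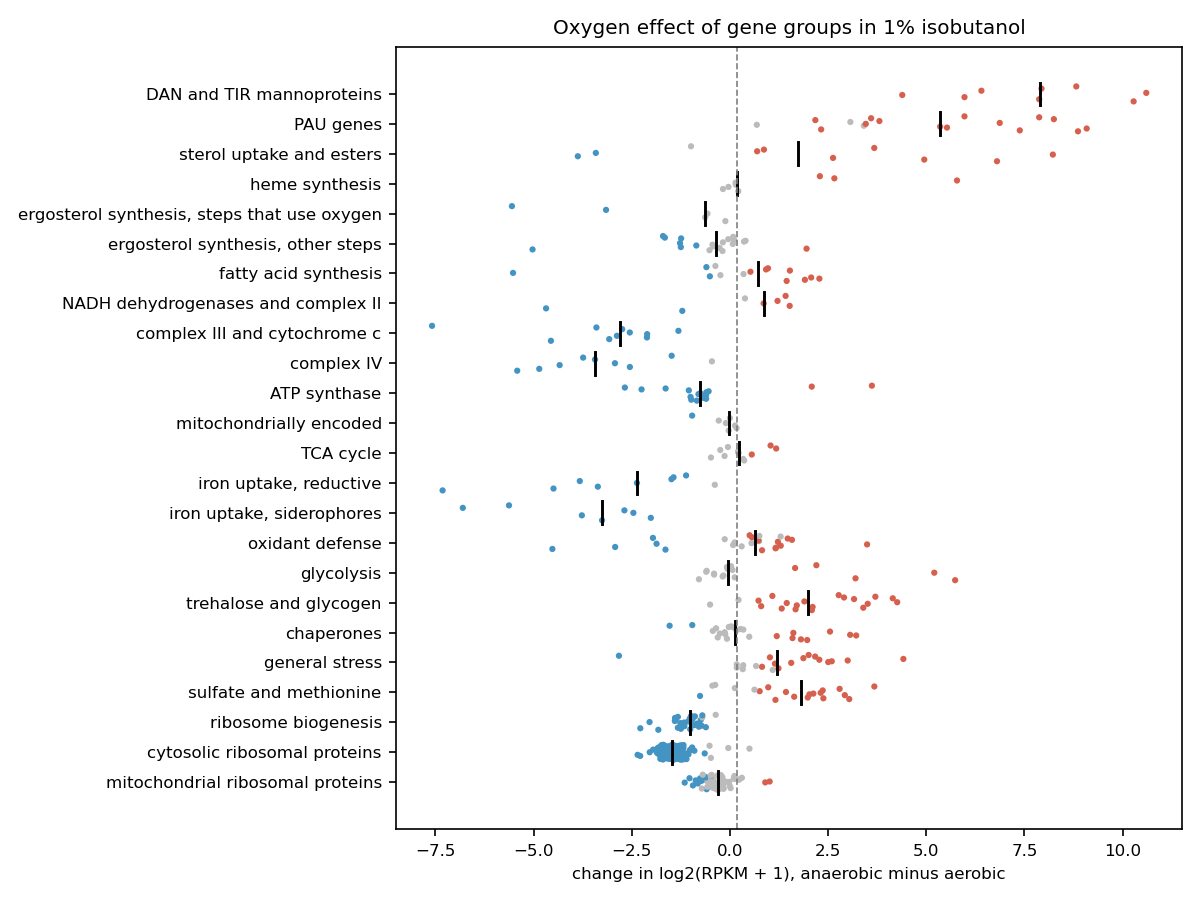
Change in log2(RPKM + 1), anaerobic minus aerobic, of each tested member (points) of 24 gene groups in 1% isobutanol, with 6 libraries per oxygen condition. Red points rose and blue points fell at FDR under 1%, grey points did not pass, black bars are group medians and the dashed line is the median of all genes at 0.18. The DAN and TIR mannoproteins lie farthest right with a median of 7.90, and the lowest medians are those of complex IV at -3.44 and of siderophore uptake at -3.26.

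Among 16 regulators of the oxygen response, 4 rose and 3 fell, shares close to the 27.9% and 16.3% of all genes. ROX1, the repressor of hypoxic genes, was at 34.1 to 97.3 RPKM with oxygen (median 77.6) and at 0 to 0.29 without (median 0.168). No anaerobic library approached an aerobic one, and the change was -5.88 ± 0.17 (SE; adjusted p = 1.1e-11). UPC2, the activator of sterol import and anaerobic wall genes, went the other way, from 4.90 to 9.74 RPKM (median 8.46) to 94.7 to 196 (median 161), a change of 4.10 ± 0.18 (adjusted p = 9.3e-10). HAP4, the limiting subunit of the Hap2/3/4/5 activator, fell by 2.85, from a median of 57.3 to 8.85 RPKM. MGA2, which acts on the desaturase gene OLE1 in response to membrane saturation, rose by 2.83, from a median of 27.2 to 226 RPKM. The other regulators past the test were HAP1 and SUT1, which rose by 2.25 and 1.44, and the repressor gene MOT3, which fell by 2.63. ECM22, HAP2, HAP3, HAP5 and 5 further regulators did not pass.

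Several proteins of yeast come as a pair of isoforms, of which the cell uses mainly 1 with oxygen and the other without. All 5 aerobic members fell, and 4 of the 5 anaerobic members rose. CYC1 was at 373 to 540 RPKM with oxygen (median 430) and at 0.56 to 2.35 without (median 1.32). The groups were far apart, and the change of -7.59 ± 0.20 (adjusted p = 3.8e-12) was shared by WA (-7.73), PAP (-7.29) and IL01 (-7.74). Its neighbor ANB1 was at 2.01 to 11.4 RPKM with oxygen (median 6.96) and at 1213 to 1996 without (median 1642). This rise of 7.83 ± 0.29 (adjusted p = 1.5e-10) met a fall of its near-identical partner HYP2, the aerobic eIF5A, from 5419 to 6899 RPKM (median 6300) to 65.6 to 436 (median 184), a change of -5.22 ± 0.31. Reads may be shared within this pair, though its members moved in opposite directions. COX5A, an aerobic subunit of cytochrome c oxidase, fell by 4.86 from a median of 225 RPKM to 6.38, while COX5B rose by 3.67 from 4.70 to 53.9. PET9, the main ADP/ATP carrier of the mitochondrion, fell by 4.30 from 362 to 16.0 RPKM, and its counterpart AAC3 rose by 3.24 from 13.7 to 122. HMG1, an HMG-CoA reductase at the entry to sterol synthesis, fell by 5.03 from 280 to 6.17 RPKM, and HMG2 rose by 1.95 from 35.3 to 169.

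CYC7, the second cytochrome c, was the member that did not follow. Its levels were 0.348 to 14.9 RPKM with oxygen and 1.20 to 8.57 without, the groups overlapped and the joint change was -0.09 ± 0.58 (adjusted p = 0.91). The strains differed (adjusted p of the strain-by-oxygen interaction = 0.0024). In WA the aerobic replicates stood at 14.9 and 13.0 RPKM and the anaerobic ones at 1.20 and 1.88. IL01 ran in the opposite direction, with 0.348 and 0.473 RPKM with oxygen and 8.57 and 2.43 without.

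**Figure D2:**
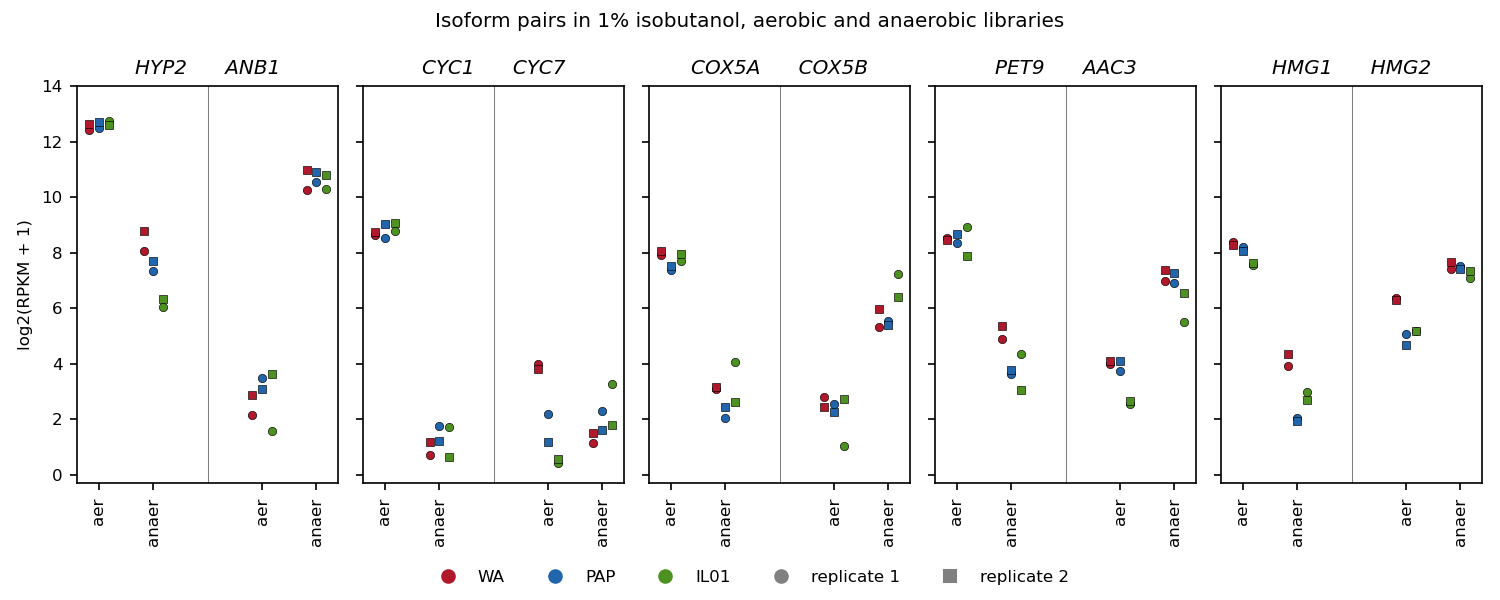
Level of each isoform as log2(RPKM + 1) in aerobic (aer) and anaerobic (anaer) libraries in 1% isobutanol, with the isoform used with oxygen left and its counterpart right in each panel. Colors mark the strains and shapes the replicates, with 1 point per library. The oxygen conditions do not overlap for 9 of the 10 genes, and CYC7 is higher with oxygen in WA and higher without it in IL01.

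Mannoproteins of the anaerobic cell wall made up 8 of the 10 largest increases. All 8 DAN and TIR genes rose (median change 7.90), and 14 of 17 tested PAU genes rose, with none that fell (median 5.35; 24 PAU genes were listed). TIR1 had the largest change of the genes named here: 1.24 to 8.88 RPKM with oxygen (median 1.64) against 2382 to 8210 without (median 5214), a rise of 10.60 ± 0.37 (adjusted p = 6.4e-11). DAN1 rose by 10.28 ± 0.43, from 0.133 to 8.74 RPKM (median 0.463) to 1864 to 4794 (median 2001). For TIR4 and TIR3 the rises were 8.82 and 7.93, with anaerobic medians of 2254 and 2740 RPKM. The seripauperins PAU5, PAU2, PAU17 and PAU23 rose by 9.08, 8.86, 8.25 and 7.87, and their anaerobic levels spread widely, for PAU5 from 388 to 13320 RPKM. PAU genes are near-identical in sequence and reads may be shared among them, so single members are uncertain. PAU23 and PAU24, also known as DAN2 and DAN3, are counted in both lists.

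Proteins of the aerobic wall moved less uniformly, as 3 of 9 fell and 1 rose. CWP2, a major mannoprotein of the aerobic wall, was at 148 to 1563 RPKM with oxygen (median 796) and at 5.11 to 122 without (median 28.6), a change of -4.45 ± 0.57. CCW12, an abundant wall protein that keeps newly made wall stable, fell by 2.05 from a median of 11340 to 2034 RPKM. CIS3, of the PIR family, rose by 1.72, while PIR1 changed by -0.89 and lost its call when any strain was left out. Without IL01 anaerobic replicate 1, 5 members fell.

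Genes of sterol import mostly rose. Of 10 genes of sterol uptake and sterol esters 7 rose and 2 fell. HES1, an oxysterol-binding protein, was at 0.391 to 5.51 RPKM with oxygen (median 2.43) and at 665 to 1358 without (median 948), a rise of 8.22 ± 0.31. AUS1 and PDR11, the ABC transporters that take up sterol without oxygen, rose by 6.80 and 4.95, to anaerobic medians of 708 and 92.6 RPKM. The acyl-CoA:sterol acyltransferases moved in opposite directions: ARE2 fell by 3.87, from a median of 187 to 10.6 RPKM, and ARE1 rose by 2.63.

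Ergosterol synthesis itself had few risen genes. Of 5 genes for steps that use oxygen 2 fell: ERG5, the C-22 sterol desaturase, from 364 to 841 RPKM (median 422) to 2.98 to 62.7 (median 4.31), and ERG3, the C-5 sterol desaturase, from a median of 1056 to 79.1. Their changes were -5.55 ± 0.35 and -3.16 ± 0.34. ERG1, ERG11 and ERG25 had changes of -0.12, -0.63 and -0.57 that did not pass. WA had positive values for these 3 genes, 0.88, 0.54 and 0.39, where PAP had -0.65, -2.02 and -1.07 and IL01 had -0.58, -0.41 and -1.03. Without WA 4 of the 5 genes fell. Among 20 genes for other steps 7 fell and 1, HMG2, rose, and 4 fell without PAP. Besides HMG1, CYB5, which donates electrons to lipid-modifying enzymes, fell by 1.71 and ERG4, the last step of the pathway, by 1.66, although ERG4 changed by only -0.44 in WA. In WA the anaerobic replicates kept 50.6 and 62.7 RPKM of ERG5, against 2.98 to 4.97 in the 4 anaerobic libraries of PAP and IL01, and the interaction passed for ERG5, ERG3, ERG4 and ERG11 (adjusted p = 0.00022, 0.0021, 0.0059 and 0.0018).

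Of 14 fatty acid genes 8 rose and 3 fell, but 6 rose and 4 fell with equal medians, and 4 rose and 1 fell without PAP. OLE1, the oxygen-using fatty acid desaturase, was at 590 to 3725 RPKM with oxygen (median 966) and at 4213 to 8137 without (median 5704), a rise of 2.07 ± 0.32. FAS1 and FAS2, the subunits of fatty acid synthase, rose by 1.91 and 2.28. FAA1, an acyl-CoA synthetase that activates imported fatty acids, fell by 5.52 ± 0.17, from 40.0 to 81.3 RPKM (median 67.6) to 0.0606 to 0.615 (median 0.392), while FAA4 rose by 1.53.

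In heme synthesis the last 3 steps rose and the 5 others did not pass. HEM13, coproporphyrinogen oxidase, the first step that uses oxygen directly, was at 51.2 to 113 RPKM with oxygen (median 70.1) and at 2290 to 5451 without (median 4602). The rise was 5.78 ± 0.22 (adjusted p = 1.4e-10), with 5.41 for WA, 6.36 for PAP and 5.58 for IL01. HEM14 and HEM15, the steps that follow, rose by 2.66 and 2.29, and HEM14 overlaps BUD25, so its reads are uncertain. HEM1, HEM2, HEM3, HEM4 and HEM12 had changes between -0.18 and 0.21.

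Genes of complexes III and IV and of the ATP synthase mostly fell. All 10 genes of complex III and cytochrome c fell (median -2.81), as did 8 of 9 genes of complex IV (median -3.44) and 15 of 17 of the ATP synthase (median -0.75). CYT1, cytochrome c1, fell from 102 to 171 RPKM (median 128) to 2.59 to 15.9 (median 3.63), a change of -4.56 ± 0.29. COX4, a core nuclear subunit of cytochrome c oxidase, fell from 135 to 248 RPKM (median 196) to 1.32 to 12.8 (median 3.09), a change of -5.42 ± 0.28. COX9 was the complex IV member that did not pass, at -0.46 (adjusted p = 0.013). The ATP synthase genes that rose were STF1 and STF2, regulators of its inhibitor, by 2.08 and 3.61, while the inhibitor gene INH1 itself fell by 2.68. ATP20 and TIM11, which help the enzyme form dimers, fell by 2.25 and 1.64, the 12 other fallen members had changes from -0.54 for ATP18 to -1.05 for ATP19, and leaving out PAP or WA reduced the fallen ATP synthase genes to 6 and 9.

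At the entry points of the chain 4 of 7 genes rose and 2 fell. NDE1, the main external NADH dehydrogenase, fell by 4.68 ± 0.22, from 93.4 to 256 RPKM (median 111) to 2.24 to 9.09 (median 4.13), and the internal NDI1 fell by 1.21. NDE2, another NADH dehydrogenase gene of the list, rose by 1.52. Its call was lost without PAP, without IL01 and with the replicate block for each strain (adjusted p = 0.0129). In complex II, SDH1, SDH2 and SDH4 rose by 0.86, 1.21 and 1.42. Genes encoded in the mitochondrion moved little: of 7 tested, only OLI1 passed, with a change of -0.96 that did not pass with quantile normalization. In the TCA cycle 3 of 11 genes rose, a share close to the 27.9% of all genes: LSC2 by 1.18, MDH1 by 1.03 and KGD1 by 0.56. Of 10 tested genes of the glyoxylate cycle and gluconeogenesis 7 rose, led by ACS1, an acetyl-CoA synthetase, at 2.21, and 3 rose with quantile normalization.

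Iron uptake fell as a group. Of 9 genes of the reductive system 8 fell (median -2.37), and all 7 genes of siderophore uptake fell (median -3.26), of which 5 fell with the replicate block for each strain, without PAP or without IL01. FET3, the multicopper ferroxidase that uses oxygen to take up iron, was at 120 to 478 RPKM with oxygen (median 345) and at 0.112 to 1.55 without (median 0.512), a change of -7.32 ± 0.20 (adjusted p = 7.1e-12). Its permease partner FTR1 fell by 4.49. CCC2, which loads copper into Fet3, had a change of -3.82, and the reductase gene FRE1 of -3.37. FIT2 and FIT3, shown above with their Aft1/Aft2 cores, fell by 6.80 ± 0.94 and 5.63 ± 0.73. SIT1 and ARN1, siderophore transporters, had changes of -3.77 and -3.26. CTR3, a high-affinity copper transporter, fell by 6.09, from a median of 176 to 0.909 RPKM. The low-affinity transporter FET4, which is known to be repressed by Rox1, rose by 1.41 from a median of 31.1 to 62.4 RPKM, but its change was 0.22 in PAP and 3.03 in IL01, and its call was lost without WA, without IL01, with equal medians and with a replicate block for each strain (adjusted p = 0.0197).

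**Figure D3:**
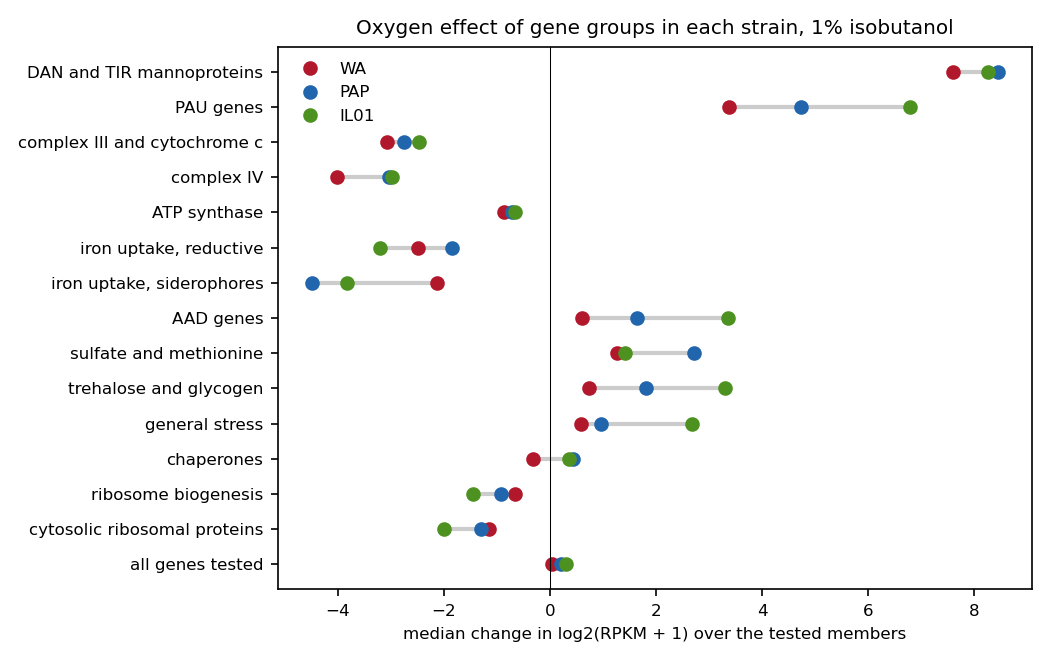
Median change in log2(RPKM + 1), anaerobic minus aerobic, over the tested members of 14 gene groups and over all genes tested, in each strain (colored points; 2 libraries per strain and oxygen condition). WA lies nearest 0 for trehalose and glycogen at 0.74, against 1.81 in PAP and 3.31 in IL01. The strains are close for the ATP synthase, from -0.87 to -0.65.

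Oxidant defense had 11 risen and 5 fallen genes of 24, beside 27.9% and 16.3% of all genes. SOD2, the mitochondrial superoxide dismutase, fell by 4.52 ± 0.35, from 194 to 455 RPKM (median 272) to 4.70 to 31.4 (median 11.8). SOD1, AHP1, GPX2 and GRX2 fell by 1.64, 1.87, 2.92 and 1.96, of which GRX2 overlaps EMI1 on the genome. TSA2, a thioredoxin peroxidase, rose by 3.49 ± 0.38, from a median of 19.1 to 258 RPKM. The other risen genes include TRR2, GRX1 and PRX1, at 1.58, 1.47 and 1.29. The balance of the list moved with the setting, to 7 risen and 6 fallen with equal medians, 9 and 3 with quantile normalization, 6 and 3 without PAP and 7 and 5 without IL01.

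Most genes of glycolysis did not pass, and the 5 of 17 that rose, a share close to the 27.9% of all genes, were HXK1, TDH1, GLK1, PYK2 and ENO1. TDH1, a minor glyceraldehyde-3-phosphate dehydrogenase, was at 51.3 to 87.3 RPKM with oxygen (median 63.0) and at 868 to 16850 without (median 1620), a rise of 5.20 ± 0.44. HXK1, a hexokinase repressed by glucose, rose by 5.73 ± 0.75, from a median of 8.01 to 652 RPKM. The change of HXK1 was 1.96 in WA, whose aerobic replicates already stood at 56.9 and 54.7 RPKM, and 7.45 and 7.79 in PAP and IL01. GLK1 and PYK2 rose by 3.20 and 2.20, and GLK1 overlaps YCL042W. The main isozymes TDH3, PDC1 and ADH1 had changes of -0.59, -0.82 and -0.57 that did not pass, at aerobic means of 24660 ± 4925, 9689 ± 2068 and 6558 ± 2452 RPKM (SD, n = 6).

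Reserve carbohydrate genes rose: 18 of 20 of the trehalose and glycogen list (median 1.99). GSY1, a glycogen synthase, was at 1.30 to 3.84 RPKM with oxygen (median 1.90) and at 16.0 to 162 without (median 65.1), a rise of 4.26 ± 0.44. GPH1, glycogen phosphorylase, and PGM2, the main phosphoglucomutase, rose by 4.15 and 3.51. GAC1, a targeting subunit of the phosphatase that activates glycogen synthase, rose by 3.70, from 0.572 to 17.5 RPKM. In 20 of 20 members the change had its smallest size in WA, against 3401 of all 5715 genes. Without PAP 11 members rose.

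General stress genes rose in 13 of 20 cases, with 1 that fell. TFS1, an inhibitor of carboxypeptidase Y, rose by 4.42 ± 0.32, from 10.5 to 32.3 RPKM (median 15.0) to 236 to 1084 (median 349). GAD1, glutamate decarboxylase, and PHM7 rose by 3.00 and 2.59, and HOR7 fell by 2.83, and without PAP 7 members rose. Of 24 chaperones 8 rose and 2 fell, beside 27.9% and 16.3% of all genes (median 0.14, close to that of all genes). HSP42, SSE2 and HSP104 rose by 3.06, 2.55 and 1.97, and SSB1 and SSB2, which bind new chains at the ribosome, fell by 1.54 and 0.96. HSP26, a small heat shock protein, rose by 3.21 ± 0.93, with IL01 anaerobic replicate 1 at 1712 RPKM against 11.3 to 56.3 in the 5 other anaerobic libraries. Its call was lost in 17 of 28 alternatives, among them the replicate block for each strain (adjusted p = 0.0285), but not without that library (adjusted p = 0.0026). Without PAP 1 chaperone rose. Markers of stationary phase (9 genes) summed to 35.6 to 103 RPKM with oxygen and to 90.0 to 282 without, and markers of sporulation (12 genes) to 8.48 to 27.6 and 17.6 to 43.2. No marker of either list was at 0 in every library, and 2 of 7 and 5 of 10 tested members rose, beside 27.9% of all genes. Their part in the stress and reserve results was not tested.

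Genes of cytosolic ribosomes and of ribosome biogenesis fell. Of 139 tested genes of cytosolic ribosomal proteins 135 fell (median -1.48), as did 28 of 30 genes of ribosome biogenesis (median -1.01), and none rose in either list. RPS22A, of the small subunit, was at 3674 to 5969 RPKM with oxygen (median 4919) and at 402 to 1878 without (median 1405), a change of -2.04 ± 0.33. RPL9A, RPS26B and RPS29A fell by 2.35, 2.29 and 1.96. NSR1, a nucleolar protein needed for processing of ribosomal RNA, fell by 2.28 from a median of 340 to 77.3 RPKM. RPL9B, RPL15B, RPL41B and RPS9A did not pass, and reads may be shared within such pairs of paralogs. The count of fallen cytosolic ribosomal proteins was 83 with quantile normalization and 96 without PAP, and that of ribosome biogenesis 11 without PAP. Mitochondrial ribosomal proteins had 11 fallen and 2 risen genes of 69 (median -0.31, against 0.18 for all genes). Their share of fallen genes was close to the 16.3% of all genes, and that of risen genes was below the 27.9%. The count of fallen genes was 26 with quantile normalization, 33 with equal medians and 1 without PAP.

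Sulfate assimilation and methionine synthesis rose, in 15 of 20 genes against 1 that fell (median 1.81). SUL2, a sulfate permease, was at 0.876 to 2.65 RPKM with oxygen (median 1.66) and at 5.36 to 114 without (median 52.4), a rise of 3.68 ± 0.48. MET2, MET10 and STR3 rose by 3.04, 2.92 and 2.79, and MET8, which makes the siroheme of sulfite reductase, fell by 0.76. Synthesis of branched-chain amino acids, of which valine gives isobutanol by Ehrlich degradation, had 1 risen and 1 fallen gene of 12. These were LEU1 at 1.03 and LEU9 at -1.43, both of leucine synthesis. In the Ehrlich pathway and among alcohol oxidoreductases 5 of 13 rose and 3 fell, beside 27.9% and 16.3% of all genes. ARO10, a broad 2-oxo acid decarboxylase, was at 0.187 to 4.71 RPKM with oxygen (median 0.363) and at 8.55 to 56.5 without (median 17.2), a rise of 3.20 ± 0.41. ADH7 and GRE3 rose by 1.34 and 1.87, while ADH6, BDH1 and GRE2 fell by 0.82, 1.08 and 1.13, the last with an adjusted p of 0.0126 in the replicate block for each strain. In the list of arginine, lysine and histidine synthesis 6 of 24 rose and 4 fell, shares close to the 27.9% and 16.3% of all genes. ARG3 and ARG1 were up by 1.91 and 1.53 and LYS20 and HIS6 down by 1.85 and 1.35.

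Redox and fermentation genes moved in both directions. Both fumarate reductases, FRD1 and OSM1, which reoxidize FADH2 without oxygen, rose by 1.61 and 1.54. In glycerol metabolism GPD1 and GPP2, the stress-responsive isozymes of glycerol synthesis, rose by 2.49 and 2.31, while GPP1 and GUT2 fell by 1.28 and 1.23. GPD2, the isozyme known for its role without oxygen, had a change of -0.23 that did not pass. In fermentation 5 of 13 genes rose and 1 fell, beside 27.9% and 16.3% of all genes. The counts were 3 and 1 with quantile normalization, 4 and 2 with equal medians and 3 and 1 without PAP. ALD6, the cytosolic acetaldehyde dehydrogenase, was at 996 to 1785 RPKM with oxygen (median 1124) and at 146 to 438 without (median 301), a change of -2.23 ± 0.19. The minor isozymes ADH5, ALD2 and PDC6 rose by 1.81, 1.74 and 1.49. Among hexose transporters 1 of 8 passed: HXT1, a low-affinity transporter, fell by 2.50. The list gave 3 risen and 1 fallen without WA anaerobic replicate 1, 2 and 1 without WA, 0 and 3 with equal medians and 1 and 2 with quantile normalization.

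Further groups varied in the share and size of their changes, and their counts stand beside 27.9% risen and 16.3% fallen of all genes. Of 6 tested AAD genes, aryl-alcohol dehydrogenases of near-identical sequence, 4 rose: AAD6 by 2.98, AAD10 by 2.52, AAD4 by 2.28 and AAD14 by 1.64. In the zinc list 6 of 11 rose and 2 fell, with IZH4 and IZH2, membrane proteins tied to zinc and lipid metabolism, up by 3.85 and 2.48 and the zinc transporter ZRT1 by 2.36, and IZH1 down by 1.76. Of 16 plasma membrane exporters 6 rose and 2 fell, not far from the shares of all genes, led by QDR2 at 2.48 and TPO1 at -2.07. The counts were 3 and 3 under quantile normalization, 3 and 2 with equal medians and 2 and 1 without PAP. In peroxisomal beta-oxidation 4 of 8 rose and 2 fell, with CAT2 at 1.63 and CRC1 at -1.31. Low-affinity metal uptake had 2 risen and 1 fallen of 4, with SMF3 down by 0.90. NAD synthesis had 3 risen of 10, led by BNA3 at 1.05, and 1 fallen, a share near that of all genes, with 3 and 3 under quantile normalization and 2 and 3 with equal medians. In the flocculation list 1 of 8 rose, MSS11 by 0.77, and of 6 tested mating type markers 2 rose, STE6 by 0.90 and BAR1 by 0.80, the latter with an adjusted p of 0.016 in the replicate block for each strain. Of the 10 largest increases PBI1, at 1.31 to 8.01 RPKM with oxygen (median 3.17) and at 696 to 2180 without (median 1003), stood outside these groups with a rise of 8.03 ± 0.23. Of the 10 largest decreases YER053C-A, at 264 to 859 RPKM with oxygen and 0 to 1.62 without, led with -8.40 ± 0.23, and YGL188C fell by 5.75.

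The effect of oxygen removal differed between strains for 152 of the 5715 genes, 2.66% (limma, joint test of the interaction at FDR under 1%), and an unadjusted p under 0.05 was reached by 1072. Among the 152, WA had the change of smallest size in 117, PAP in 19 and IL01 in 16, against 3401, 1423 and 878 of all genes. Their median change was smallest for WA with 0.74, against 2.18 for PAP and 2.86 for IL01, and 31 genes changed in opposite directions in different strains. The count was 47 without either aerobic replicate of WA, 55 and 57 without its anaerobic replicates 1 and 2, 92 and 85 without the aerobic replicates 1 and 2 of PAP, and 95 and 96 without its anaerobic replicates 1 and 2. It was 96 without IL01 aerobic replicate 1, 218 without IL01 anaerobic replicate 1 and 702 without IL01 anaerobic replicate 2.

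YHB1, a flavohemoglobin that uses oxygen to detoxify nitric oxide, showed the contrast in the plainest form. PAP held 1117 and 1131 RPKM with oxygen and 100 and 93.3 without, a change of -3.53. IL01 held 0.595 and 1.89 RPKM with oxygen and 174 and 83.6 without, a change of 5.83. WA lay between them with 50.4 and 56.7 RPKM with oxygen and 173 and 149 without, a change of 1.57, so the strains were far apart with oxygen and close together without it. FIT2 was likewise spread among strains with oxygen: aerobic WA was at 17.1 and 17.9 RPKM, PAP at 2922 and 1161 and IL01 at 1389 and 906, against 0.579 to 4.16 in the 6 anaerobic libraries. CSS1 changed by 3.76 in WA, by -0.24 in PAP and by -3.45 in IL01, from 1661 and 1106 RPKM to 81.2 and 187. EGO4 had changes of -0.20 for WA, 2.58 for PAP and 6.23 for IL01.

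The 4 other genes with the widest range between strains were PAU genes. PAU9 was at 0 in both aerobic replicates of PAP and at 1473 and 1795 RPKM without oxygen, while IL01 was at 0 in all 4 libraries and WA in 3 of 4, with 0.838 RPKM in WA aerobic replicate 1. PAU24 was at 0 in all 4 WA libraries, and without oxygen at 2189 and 2057 RPKM in PAP and 2588 and 269 in IL01. PAU13 was at 0 in all 4 PAP libraries and at 545 and 40.5 RPKM in anaerobic IL01, against 3.40 and 3.24 in anaerobic WA. PAU17 reached 142 and 193 RPKM in anaerobic WA, while PAP reached 5077 and 3699 and IL01 43180 and 10830. Of the 17 tested PAU genes 10 had such an interaction, and reads of all strains were aligned to the S288c genome, so a gene that a strain lacks or carries in a diverged copy and a gene that it does not transcribe cannot be told apart. The calls of PAU13 and PAU17 were lost in 12 and 8 of the alternatives, among them the replicate block for each strain (adjusted p = 0.0154 and 0.0347), and those of PAU24 and EGO4 with voom weights (adjusted p = 0.169 and 0.0212).

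**Figure D4:**
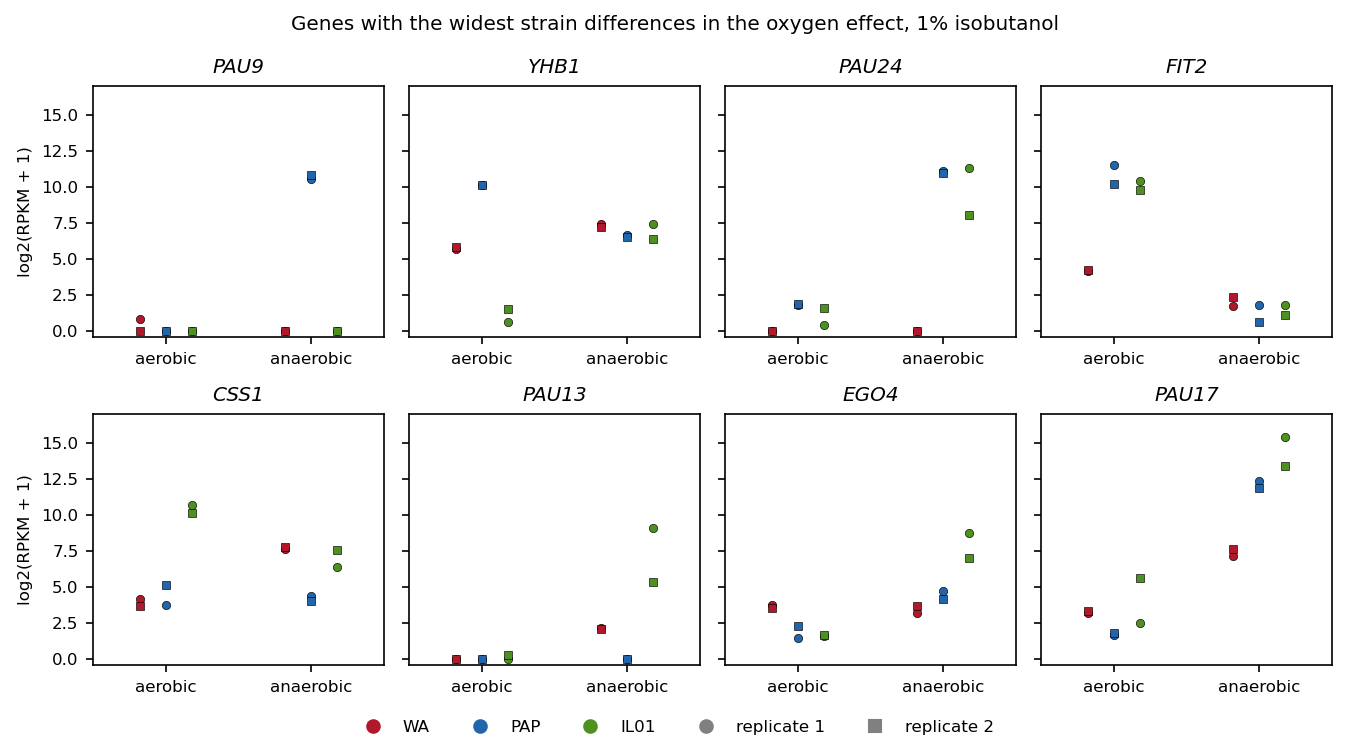
Level as log2(RPKM + 1) of the 8 genes with the widest range of the oxygen effect between strains, in aerobic and anaerobic libraries in 1% isobutanol, with 1 point per library, colored by strain and shaped by replicate. The strains are far apart for YHB1 and FIT2 with oxygen and close together without it, and the PAU genes are at 0 in every library of at least 1 strain or rise to different heights.

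The order of the strains was not the same in every group. For trehalose and glycogen the median change grew from WA (0.74) over PAP (1.81) to IL01 (3.31), and for AAD genes it was 0.61, 1.64 and 3.37 in this order. General stress genes followed at 0.59, 0.96 and 2.69, and ribosome biogenesis at -0.66, -0.93 and -1.45. The 7 tested markers of stationary phase had medians in the same order, 0.15, 0.56 and 1.53, and their part in these orders was not tested. PAP had the widest changes in siderophore uptake, at -4.48 against -2.13 in WA and -3.82 in IL01, and in sulfate and methionine genes, at 2.72 against 1.26 and 1.42. Over all genes tested, WA had a median of 0.05, PAP one of 0.21 and IL01 one of 0.30. Members with an interaction numbered 7 of 20 for trehalose and glycogen, 6 of 24 for chaperones, 5 of 7 for siderophore uptake, 5 of 20 for sulfate and methionine and 4 of 6 for AAD genes. GPH1 had changes of 1.36, 3.89 and 7.18 in WA, PAP and IL01, and PGM2 of 0.86, 3.72 and 5.94.

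Against plain YPD, the effect of oxygen removal was higher in isobutanol for 52 of 5685 genes (0.915%) and lower for 24 (0.422%), and an unadjusted p under 0.05 was reached by 822. Here higher means a larger increase or a smaller decrease, and the changes within YPD are given as values. Of the 52, 24 had a negative change in both media but a smaller one in isobutanol, 16 had a positive change in isobutanol and a negative one in YPD, and 12 had positive changes in both. With a block for the replicate number within each strain 46 genes were called, 32 higher and 14 lower, and all of them were among the 76. The balance depends on PAP: without it 19 genes were called, 5 higher and 14 lower, against 35 without WA (27 higher and 8 lower) and 35 without IL01 (26 and 9). In PAP YPD anaerobic replicate 2 only 55.6% of the mapped reads were in genes, against 78.8% in replicate 1. Without that library the median difference over all genes was -0.169, against -0.0877 with all libraries.

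Respiratory genes were among those with a higher effect in isobutanol. The difference passed for 8 of 10 genes of complex III and cytochrome c, 5 of 17 of the ATP synthase, 4 of 7 NADH dehydrogenases and complex II, and 1 of 9 of complex IV, in every case toward a less negative or a positive change in isobutanol. Without PAP only 5 genes of any kind were called higher, so at most 5 of these calls can have remained. CYC1 stood at 612 to 1038 RPKM in aerobic YPD (median 861) and at 0.279 to 1.16 in anaerobic YPD (median 0.561), so its changes of -8.97 there and -7.59 in isobutanol differed by 1.38 ± 0.26 (adjusted p = 0.0032). Its aerobic levels were lower in isobutanol with no overlap, and its anaerobic levels overlapped with a higher median in isobutanol. QCR8, a subunit of complex III, changed by -3.59 in YPD and by -1.31 in isobutanol. NDE1 changed by -7.10 in YPD, from a median of 240 to 1.24 RPKM, and by -4.68 in isobutanol, a difference of 2.41 ± 0.30. INH1 changed by -5.17 in YPD and by -2.68 in isobutanol, and this call was lost with a pseudocount of 0.25 RPKM, with the log2 values as deposited, without WA and without PAP. SDH1 and SDH2 changed by -0.75 and -0.44 in YPD and by 0.86 and 1.21 in isobutanol.

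**Figure D5:**
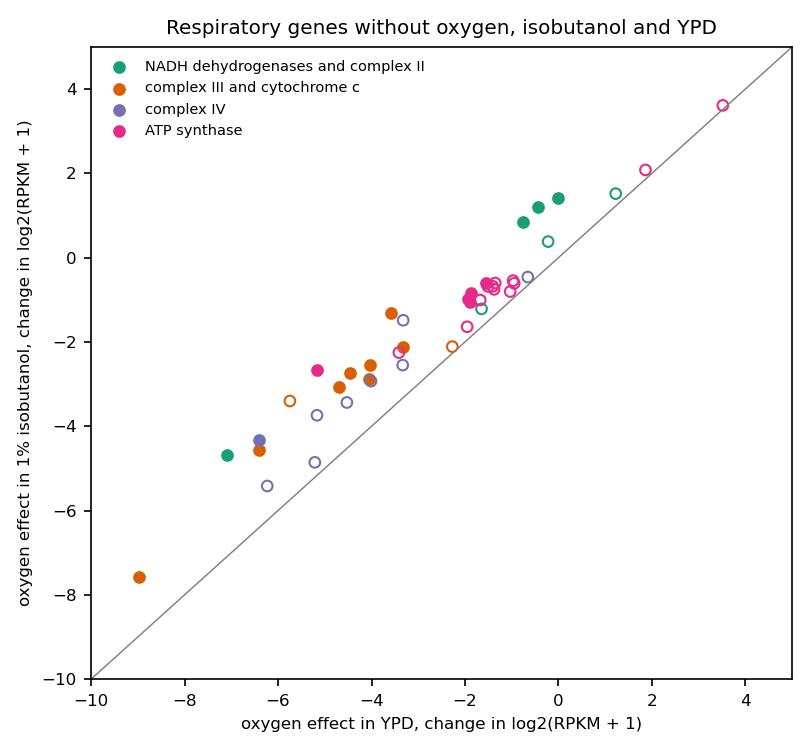
Change in log2(RPKM + 1) without oxygen in YPD (horizontal) and in 1% isobutanol (vertical) of genes of the respiratory chain and ATP synthase, with 6 libraries per medium and oxygen condition and the line of equal change in grey. Filled points passed the test of the difference at FDR under 1%. All filled points lie above the line, from CYC1 at -8.97 and -7.59 to SDH4 at -0.01 and 1.42.

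TDH1 had the largest upward difference of the genes named here, 4.30 ± 0.62 (adjusted p = 0.00018). In YPD it was at 3.16 to 46.2 RPKM with oxygen (median 33.1) and at 11.2 to 269 without (median 22.7), so the groups overlapped, whereas in isobutanol they were clear of each other. Its call was lost without PAP, at an adjusted p of 0.0107. TIR3 followed with 2.94 ± 0.30: the anaerobic medians were alike at 2906 RPKM in YPD and 2740 in isobutanol, and the aerobic median was 61.8 RPKM in YPD against 9.26. HXT4, a high-affinity hexose transporter, changed by -1.91 in YPD and 0.90 in isobutanol, and its call was lost without PAP and without IL01. GAC1 changed by 3.70 in isobutanol and by 1.37 in YPD. ARO9 and ARO10, a transaminase and a decarboxylase of the Ehrlich pathway, changed by 0.92 and 3.20 in isobutanol and by -0.78 and 0.98 in YPD.

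ALD6 had the largest downward difference of the genes named here, -3.40 ± 0.22 (adjusted p = 1.3e-09). In YPD it went from 1059 to 1581 RPKM (median 1248) to 2492 to 3505 (median 2792), a change of 1.17, and in isobutanol it fell, so that the anaerobic libraries of the media did not overlap. YGR035C changed by -3.59 in isobutanol and by -0.38 in YPD, a difference of -3.21 ± 0.38. DAN4, a wall mannoprotein, was higher without oxygen in both media, with an anaerobic median of 551 RPKM in YPD and 72.5 in isobutanol, a difference of -3.19 ± 0.43 that was lost without IL01 (adjusted p = 0.0159). DIC1, the mitochondrial dicarboxylate carrier, changed by 2.33 in YPD, from a median of 19.6 to 93.7 RPKM, and by -0.41 in isobutanol, where it was already at 123 RPKM with oxygen. LEU2, in leucine synthesis, had a difference of -1.82 (adjusted p = 0.0061) that was lost in 19 of 38 alternatives, among them the replicate block for each strain (adjusted p = 0.0253). Of the multidrug transporters PDR5 and SNQ2, known to be driven by Pdr1, PDR5 changed by -0.31 in isobutanol and by 1.12 in YPD and SNQ2 by 0.00 and 1.13. Their differences of -1.43 ± 0.19 and -1.12 ± 0.18 passed the test. All differences from YPD and from 1-butanol use the same 12 isobutanol libraries.

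Against 1-butanol, given at 0.8% where isobutanol was at 1%, the effect of oxygen differed for 1 of 5717 genes (0.0175%), with a higher effect in isobutanol, and for 0 toward a lower effect (0%). An unadjusted p under 0.05 was reached by 135 genes. The gene was ARO9, the aromatic aminotransferase that starts the Ehrlich pathway. In isobutanol it was at 3.71 to 8.34 RPKM with oxygen (median 6.36) and at 8.21 to 23.1 without (median 10.6). In 1-butanol it was at 22.4 to 40.5 RPKM with oxygen (median 29.2) and at 9.97 to 12.8 without (median 10.2). The anaerobic levels thus overlapped between the alcohols while the aerobic ones did not, and the difference was 2.31 ± 0.24 (adjusted p = 1.8e-05), which was lost without PAP. The doses differ, so dose and alcohol cannot be told apart here, and at 2 replicates per strain a difference that did not pass is not shown to be absent.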

How the data were processed

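RNA was sequenced as rRNA-depleted, strand-specific libraries with single-end 100 base reads. The authors trimmed reads with Trimmomatic, aligned them to the yeast genome R64 with BWA and counted reads in genes with HTSeq. The deposited values are log2 RPKM, with an exact 0 for genes without reads. The HTSeq strand setting is not given in the sources used here, so overlapping genes are uncertain. Whole reads could be recovered with gene lengths for 6012 of the 6022 annotated IDs (tolerance 0.01), and were used for depth and voom weights. At the depth of these libraries 3 reads in a gene of 1 kb correspond to 0.243 to 0.382 RPKM, a limit of counting error only. Reads of all strains were aligned to S288c.

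An exact 0 was set to an RPKM of 0, and limma 3.58.1 (R 4.3.3) with a trend was fitted to log2(RPKM + 1) of genes with a mean of at least 1 RPKM in the libraries compared. The main fit had strain and oxygen as terms. Strain-by-oxygen and medium-by-oxygen interactions were tested in fits of 12 and 24 libraries. P-values were adjusted by Benjamini-Hochberg over all genes tested, at an FDR of 1%. Fits were tested on simulated data with 200 changed genes, of which 89% of those changed by 1 and 100% of those changed by 2 on the log2 scale were recovered for oxygen removal. For the strain interaction these shares were 0% and 80%.

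Members and gene lists were chosen with earlier results of these data known. The genes named were the 10 largest increases and decreases with one direction in every strain and a mean of at least 10 RPKM, up to 4 members per list with the largest changes, or the 2 with the highest mean where none passed, all isoform pairs, the 8 widest strain ranges with a mean of at least 10 RPKM, and the 5 largest differences in each direction per medium with the same minimum. Any other gene named, such as PDR5, SNQ2, GPD2, TDH3, SOD1 or QCR8, was chosen after its values were seen.

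The study collected replicates on different days and paired replicate samples in its own linear model. Deviations of same-numbered aerobic and anaerobic libraries of a strain correlated in isobutanol (0.222 in WA, 0.287 in PAP and 0.262 in IL01), but in YPD the correlation for PAP was -0.084. Between isobutanol groups of different strains it ran from -0.397 (WA anaerobic with IL01 aerobic) to 0.442 (PAP anaerobic with IL01 anaerobic). The values within a strain thus do not stand apart. Values with a replicate block for each strain are given where they end the call of a named gene. P-values measure the spread between these libraries. Upstream windows came from the RefSeq annotation of R64. Alternatives covered the pseudocount, low values, scaling, weights, blocks, and leaving out libraries or strains. The ethanol libraries entered only the alternative fit of all 48 libraries and the check of pairing.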

Additional observations from a re-analysis of the deposited data

Results flagged for a closer look

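WA anaerobic replicate 1 had 66.4% of its mapped reads in genes, far below the 5 other anaerobic libraries in isobutanol. In all, 8 measures of the isobutanol libraries were examined in this way, and chance alone singles out about 1 in 20 groups. The libraries of YPD and 1-butanol were not examined in this way. Among them, PAP YPD anaerobic replicate 2 had 55.6% of its mapped reads in genes and WA 1-butanol anaerobic replicate 1 had 59.05%.

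The effect of oxygen removal differed between strains for 152 genes, which include 41 of the genes named by the rule. The figures that follow are the widest gaps between strain effects on the log2 scale. Among wall genes the range was 11.11 for PAU9, 9.21 for PAU24, 7.09 for PAU13, 6.22 for PAU17 and 4.42 for CWP2. In iron and oxidant genes it was 7.48 for FIT2, 5.31 for FIT3, 3.02 for ARN1, 2.81 for FET4, 2.75 for TSA2 and 9.35 for YHB1. In sterol and respiratory genes it was 2.79 for ERG5, 2.39 for ERG3, 2.12 for ERG4, 1.95 for HMG1, 4.59 for CYC7 and 3.49 for STF2. Among genes of carbon metabolism it was 5.83 for HXK1, 3.48 for GLK1, 2.25 for PYK2, 3.83 for HXT1, 1.95 for GPP2, 3.63 for GSY1, 5.82 for GPH1 and 5.08 for PGM2. The chaperones HSP42, SSE2 and HSP104 had ranges of 3.42, 3.60 and 2.82. The aryl-alcohol dehydrogenases AAD6, AAD10, AAD4 and AAD14 had 3.33, 3.20, 3.14 and 2.38. The sulfur genes SUL2, MET10 and STR3 had 4.01, 1.91 and 2.37. For TPO1, IZH4 and IZH2 the ranges were 2.31, 4.63 and 2.56, and for CSS1, EGO4 and YGR035C they were 7.21, 6.43 and 2.44.

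The effect of oxygen differed between isobutanol and YPD, by the test of the interaction, by 4.30 for TDH1, 2.94 for TIR3, 2.80 for HXT4, 2.49 for INH1 and 2.41 for NDE1 toward isobutanol. The differences were -1.82 for LEU2, -2.74 for DIC1, -3.19 for DAN4, -3.21 for YGR035C and -3.40 for ALD6 in the other direction. ARO9 was the gene whose effect differed from that in 1-butanol, by 2.31.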

How the results depend on the processing

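The 2529 genes called for oxygen removal became 1187 without PAP, and 2163 to 2514 when any library was left out. The 152 strain interactions became 83 with voom weights and 47 to 702 when a library was left out. The 76 differences from YPD became 46 with a replicate block for each strain, 35 without WA, 19 without PAP and 35 without IL01, and 53 to 80 without 1 library. The 1 difference from 1-butanol became 0 without PAP and stayed at 1 whichever library was left out. The causes were not tested. Fits without a strain hold fewer libraries, and 2199 genes were called for oxygen removal without WA and 2134 without IL01. Of 183 values of named genes 46 lost their call under at least 1 alternative, and 0 changed sign in a called value. Without PAP the calls of OLE1, ERG4, NDE2, MDH1, KGD1, HXT1, GPP1, GUT2, LEU1, AAD14, SSE2, HSP104, HOR7, PGM2, HIS6, SMF3, STE6 and MSS11 were among those lost. Genes of low level and the strain interaction, with 2 libraries per strain and condition, are the least precise.

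With the replicate number as a block, 2569 genes were called for oxygen removal (shared by both oxygen conditions), 2451 (within each condition) or 2548 (for each strain), against 2529 without. Strain interactions numbered 147, 133 and 113, differences from YPD 74, 74 and 46, and differences from 1-butanol 1, 1 and 1. The block for each strain was chosen after seeing the data, as were the group counts without WA anaerobic replicate 1 and without either IL01 anaerobic library. Beside those given with its results the block for each strain ended the calls of MDH2, BNA4 and QDR1. With it the risen genes fell from 13 to 9 in general stress, from 18 to 15 in trehalose and glycogen, from 8 to 6 among chaperones and from 11 to 9 in oxidant defense, and the fallen ones from 10 to 9 in complex III and from 3 to 1 in the Ehrlich list.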
